A study of Mus musculus with 9 samples.

Results

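Among sites at which chromatin accessibility changed in mouse embryonic stem cells after 4-hydroxytamoxifen (4OHT), those described here had almost no signal beforehand. They were chosen from the authors' deposited table by a control level below 3 in log2 mean normalized reads, that is, under 8 normalized reads per library. The rule found 438 of 19165 listed sites, and all 438 were higher after 4OHT. The control level that chose them also enters the change, so levels and changes are given as a description without a test. The assay was ATAC-seq, whose Tn5 transposase cuts accessible DNA and leaves sequencing adapters in it. The cells were of the E14tg2a line on a 129SV background and carried a stable cRAF-ErT2 cassette, a fusion of the kinase RAF with an altered estrogen receptor domain, which 4OHT switches on to drive ERK signalling. All 9 libraries came from such cells, kept in serum with LIF and the GSK3 inhibitor Chir99021 at 2 µM, and then given serum, LIF and 250 nM PD173074, an FGF receptor inhibitor, for 24 h before treatment. The 3 control libraries were untreated (0 h), and 250 nM 4OHT was given for 1 h in 3 libraries and for 2 h in 3. No cells lacking the cassette and no vehicle-treated cells are among them, so an effect of 4OHT itself cannot be told apart from one of ERK.

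Chromatin that is wrapped in nucleosomes admits little transposase, and a site gains signal when transcription factors and remodelling complexes clear it. ERK phosphorylates factors such as the ETS and AP-1 families, and AP-1, a dimer of Fos and Jun proteins, is known for binding regulatory DNA that is closed in resting cells. Distal sites of this kind are usually enhancers, while promoters of active genes tend to be open before a stimulus. Each level is a mean over a population, so a few cells with an open site and many cells with a slightly open one cannot be told apart.

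For 3 of the 438 sites the DNA could be read, because they overlap annotated gene start windows (RefSeq, GRCm38.p6, 250 bases before to 50 after a start). All 3 starts belong to genes named only by a Gm number. The sequences are shown because each of them holds the AP-1 motif TGANTCA, and they are printed along the strand of the gene, with bases matching a searched motif in capitals. The first is chr15:81217010-81217198 on the plus strand, the second chr2:172276311-172276455 on the minus strand and the third chr1:97910970-97911140 on the plus strand.
Gm31608: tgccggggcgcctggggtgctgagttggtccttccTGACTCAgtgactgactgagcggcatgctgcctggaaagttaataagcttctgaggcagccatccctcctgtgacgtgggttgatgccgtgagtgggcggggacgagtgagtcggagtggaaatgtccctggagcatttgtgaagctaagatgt
Gm40007: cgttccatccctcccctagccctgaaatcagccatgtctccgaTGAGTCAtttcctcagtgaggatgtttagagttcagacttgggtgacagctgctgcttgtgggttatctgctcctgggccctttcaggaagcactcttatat
Gm31771: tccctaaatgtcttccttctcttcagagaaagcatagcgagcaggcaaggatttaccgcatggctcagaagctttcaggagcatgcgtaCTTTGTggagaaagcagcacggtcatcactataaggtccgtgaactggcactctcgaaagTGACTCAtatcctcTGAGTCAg

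Both strands were searched for the AP-1 motif TGANTCA, the ETS factor motif CCGGAA, the TEAD factor motif GGAATG, the SOX factor motif ACAAAG, the motif GATAAG of GATA factors, the E-box motif CACGTG and the CArG box of serum response factor. No match found overlapped another. The AP-1 motif occurred once at Gm31608, once at Gm40007 and 2 times at Gm31771. The same stretch of all 32851 start windows held it in 5.06%, 3.9% and 4.71% of cases, respectively. Gm31771 also held the SOX motif, as did 10.7% of windows in that stretch, and the other 5 motifs were absent from all 3. Of the listed sites that shared at least 100 bases with a start window, 83 of 355 other rising sites (23.4%) and 5 of 93 falling sites (5.38%) held the AP-1 motif in the shared bases, whose median length was 300 in both groups. A match is only a run of letters, and 3 sites say little about the other 435, for which no sequence was used. The changes at these 3 were below the median of 2.59, and their control levels were near the limit of 3. In the authors' deposited table the Gm31608 site went from 2.99 to 5.27 in log2 normalized reads (FDR 4.34e-05), the Gm40007 site from 2.99 to 5.31 (FDR 0.000795) and the Gm31771 site from 2.94 to 4.63 (FDR 0.00799). The last of these lies inside the gene body of Pam, an enzyme that amidates peptide hormones.

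The 438 sites reached low levels as well. Their 4OHT level in the authors' deposited table had a median of 5.13 in log2 normalized reads, or 35.1 normalized reads per library, with quartiles of 29.0 and 42.7. The highest was 177. A level of at least 64 normalized reads was reached at 25 sites (5.71%). Other rising sites had a median 4OHT level of 137 normalized reads, so most of the 438 remained weaker after 4OHT than a typical listed site. The highest levels after 4OHT were at sites nearest Efr3b, whose protein helps anchor a lipid kinase at the plasma membrane (7.47), Cyth4, which encodes an ARF exchange factor (7.33), and Fcnb, which encodes the lectin ficolin B (7.02).

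The median log2 change was 2.59, a 6.02-fold gain, with quartiles of 2.27 and 2.97 and a range of 1.61 to 5.41. About 243800 tested sites are implied by the FDR and p-values of the authors' deposited table, of which 7.86% are listed in either direction and 4.13% as higher. Of the listed sites, 52.6% were higher, and the rule used the same contrast, so nothing is read from all 438 rising. A change of 3 or more, which is 8-fold, was seen at 103 of the 438 (23.5%) and at 1.18% of all listed sites, and again the rule helps to set this. An FDR under 0.001 was given to 267 of them (61.0%) and to 47.5% of other rising sites, and rising sites with such an FDR made up 25.3% of the table. The control level of the rule enters the contrast behind the FDR too, so this difference is a description. A low control level demands a large gain before a site can be listed: the smallest gain in the table was 2.37 at control levels below 2, 1.91 at levels of 2 to 2.5, 1.61 at 2.5 to 3, 1.22 at 3 to 4 and 0.91 at 4 to 5. The limit itself marks no break. Just inside it, at 2.99, were sites nearest Mchr1 (the one at the start of Gm31608), Efnb2 and Setd4. Their changes were 2.28, 2.48 and 2.44, and they lay 18389, 167832 and 362727 bp from those genes. Just outside it, at 3, were sites inside Klhl2 and Nrp2 and 5978 bp from Lfng, with changes of 2.39, 2.17 and 2.22.

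**Figure D1:**
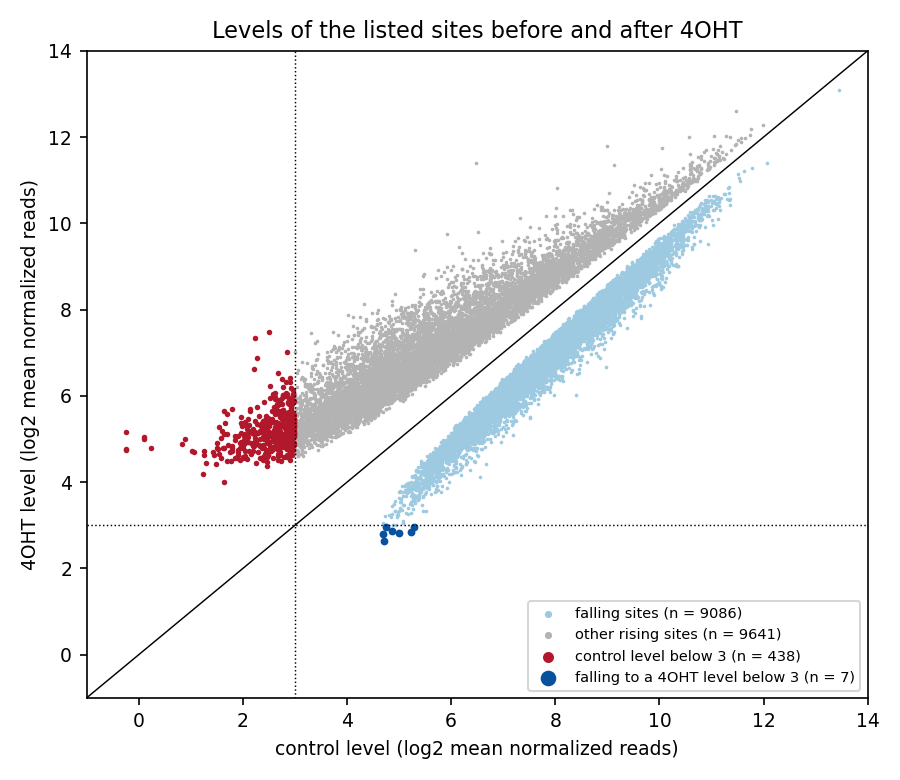
Control level (x) against 4OHT level (y) of every listed site, both in log2 mean normalized reads, with the 438 sites in red, other rising sites in grey, falling sites in light blue and the 7 sites that fell to a 4OHT level below 3 in dark blue. The diagonal marks no change, the dotted lines mark a level of 3, and the empty band along the diagonal holds no listed site.

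The opposite course, from open to nearly closed, was rare in the list. Only 7 falling sites ended at a 4OHT level below 3, from control levels of 4.69 to 5.28, with a median change of -2.07 in the authors' deposited table. Their widths of 144 to 207 bp, with a median of 167, were in the range of the 438. With the limit at 4 the counts were 1816 rising sites by control level and 157 falling sites by 4OHT level. The control mean rests on 3 libraries and the 4OHT mean on 6, and how far this and the FDR limit set the imbalance was not tested.

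How far the folds rest on a few reads was examined by taking a normalized read as a read, multiplying the control level by its 3 libraries and the 4OHT level by its 6, and computing an exact 95% interval for the ratio. Such intervals cover counting error only, not the spread between libraries, and depth per library is unknown. They also take no account of how the sites were chosen, by a low control level that enters the ratio and by the FDR limit of the list. Choosing low control levels favours high folds, so coverage of 95% cannot be assumed for these sites. The control side of a site held 19.1 normalized reads in its 3 libraries together at the median, with quartiles of 15.0 and 21.9, and the 4OHT side 211 in its 6 libraries. At 35 sites the control total was 10 or fewer. The lower bound of the fold lay above 2 at 437 of the 438 and above 4 at 180 (41.1%). Because a site with a low control level is listed only with a large gain, these counts are a description and not a test of the folds. It lay above 8 at 16, although the fold itself was at least 8 at 103. At every one of the 438 the upper bound was more than 2 times the lower.

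The control levels at the bottom of the authors' deposited table came in steps. The lowest value, -0.25 or 0.841 normalized reads, was shared by 3 sites, those nearest Arntl, Iqsec3 and Bcl11b, and is 2.52 normalized reads over the control libraries. The next values were 0.10 at 2 sites and 0.23 at 1, or 3.22 and 3.52 normalized reads in all, and then 0.83. Whether counts of 0 were raised to a minimum before the means were taken is not stated in any source used here.

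The largest folds therefore split into 2 kinds. The site nearest Arntl, which encodes the circadian transcription factor BMAL1, had the largest change of all, from -0.25 to 5.16, at chromosome 7, 113136265 to 113136412, with its centre 42133 bp outside the gene. Its fold was 42.5 with a counting interval of 12.1 to 175. The sites nearest Iqsec3, an ARF exchange factor gene of inhibitory synapses, and Bcl11b, a zinc finger factor gene of T cells, rose to 4.77 and 4.75. Their folds of 32.45 and 32 had intervals of 9.19 to 134 and 9.02 to 132. Sites nearest Med13l, a Mediator subunit gene, Nap1l3 and Tmem114 lay 79243, 176663 and 343670 bp from those genes. Their control totals were 3.22, 3.22 and 3.52 normalized reads, with intervals of 11.1 to 161, 10.8 to 157 and 8.002 to 77.5.

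The other 4 of the 10 largest changes started from 13.98 to 17.1 normalized reads over the control libraries, which gave narrower intervals. At chromosome 12, 3972775 to 3973090, inside Efr3b, the level rose from 2.51 to 7.47 in the authors' deposited table (FDR 1.35e-09), a 31.1-fold gain with a counting interval of 19.5 to 53.9. At chromosome 15, 78616031 to 78616705, inside Cyth4, it rose from 2.23 to 7.33 (FDR 1.24e-05), or 34.3-fold with an interval of 20.4 to 63.3. Sites inside Baz2b, a bromodomain gene, and Pebp4, a gene of the phosphatidylethanolamine-binding family, rose 24.2-fold (14.2 to 42.3) and 21.1-fold (12.5 to 38.8). Below the 10 largest changes, control totals in between occurred. The site inside Lipc, with a change of 4.10, had a control total of 5.56 and an interval of 7.18 to 43.9. The site nearest Fam136a, with a change of 4.00, had a control total of 9.35 and an interval of 8.63 to 36.7.

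**Figure D2:**
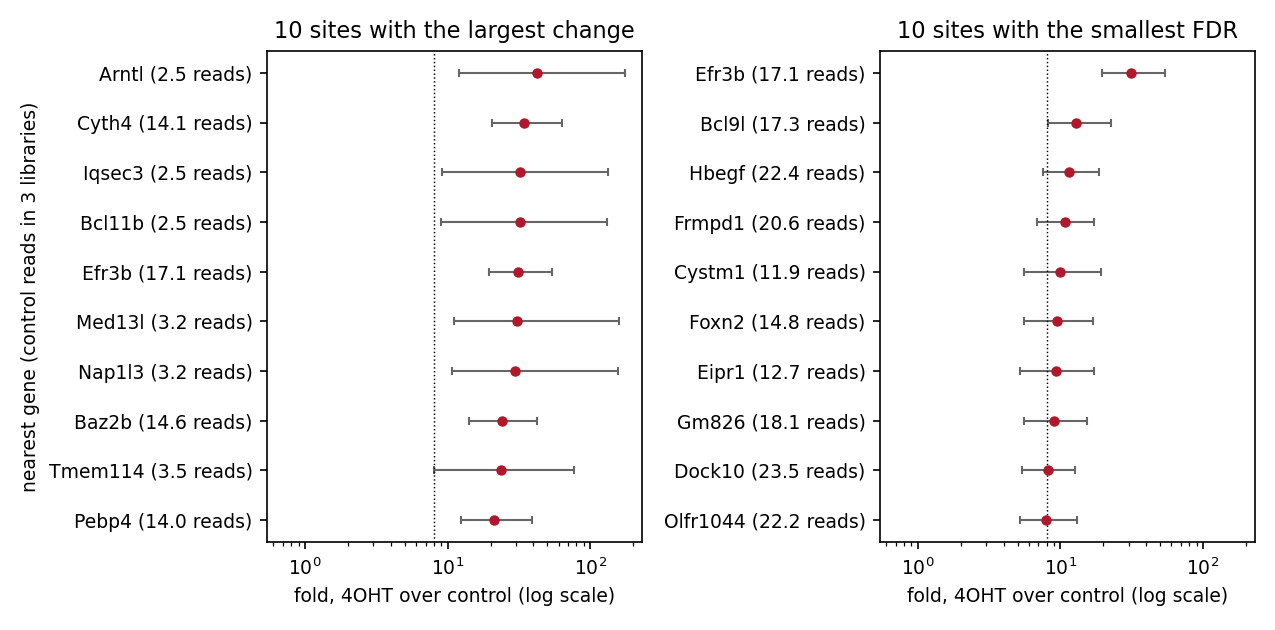
Fold of the 4OHT mean over the control mean (log axis) for the 10 sites with the largest change (left) and the 10 with the smallest FDR (right), each named by its nearest protein-coding gene and the normalized reads of the 3 control libraries together. Points are folds, bars are exact 95% counting intervals, the dotted line is 8-fold, and bars are widest at the 6 sites with 2.5 to 3.5 control reads.

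Sites with the smallest FDR were mostly other sites. Of the 10 largest changes and the 10 smallest FDR values only the Efr3b site was in both sets. The 10 sites with the smallest FDR had control levels of 1.99 to 2.97 and changes of 2.99 to 4.96. First by FDR was a site 1148 bp outside Hbegf at chromosome 18, 36503699 to 36503859. Hbegf encodes heparin-binding EGF-like growth factor, a ligand of the EGF receptor and of ErbB4. In the authors' deposited table its level rose from 2.90 to 6.41 (FDR 1.38e-10), a change of 3.51 or 11.4-fold, with a counting interval of 7.57 to 18.7. All 5 listed sites given to Hbegf were higher. Another of the 10, inside Cystm1, a gene for a small membrane protein, at 36389763 to 36389906 on the same chromosome, rose from 1.99 to 5.30 (FDR 1.75e-07).

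The third by FDR lay 158 bp beyond the 3′ end of Dock10, an exchange factor gene for small GTPases, at chromosome 1, 80500811 to 80501010, and rose by 3.04 in the authors' deposited table (FDR 1.71e-09). Sites inside Frmpd1, a FERM and PDZ domain gene, and Foxn2, a forkhead factor gene, rose by 3.43 (FDR 2.82e-08) and 3.24 (FDR 8.78e-08). A site 11379 bp from Bcl9l, a coactivator gene of β-catenin, rose by 3.69 (FDR 2.13e-07). One 2109 bp from the olfactory receptor gene Olfr1044 was its only listed site and rose by 2.99 (FDR 3.76e-08). The remaining 2 of the 10 were far from coding genes, 144024 bp from Eipr1 and 84663 bp from Gm826, and rose by 3.21 and 3.16.

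Like numbers of reads did not bring like FDR values. The 21 sites with 20 to 24 normalized reads over the control libraries and 350 to 550 over the 4OHT libraries had changes of 2.89 to 3.64, yet FDR values from 1.38e-10 to 0.00446 in the authors' deposited table, with a median of 8.94e-06. The Hbegf site stood at the low end of that range. A site near the 5′ end of Gm12447, with 22.6 control and 479 4OHT reads in all, had an FDR of 0.00042. The table gives no values per library, so neither the spread between libraries at these sites nor any difference between 1 h and 2 h could be shown. What the FDR differences rest on was not tested.

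**Figure D3:**
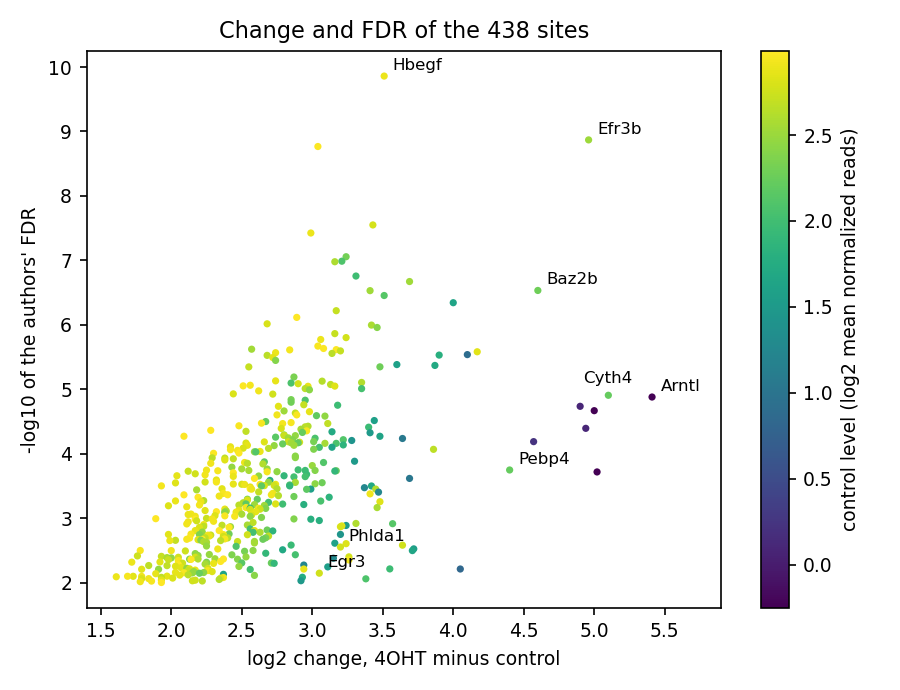
Log2 change (x, 4OHT minus control) against −log10 of the authors' FDR (y) for the 438 sites, coloured by control level in log2 mean normalized reads, with 8 sites named by their nearest gene. Hbegf has the smallest FDR at a change of 3.51, whereas the 6 darkest points, with the lowest control levels, are among the 10 largest changes and have FDR values between 1.32e-05 and 1.92e-04.

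The sites were narrow. Their median width was 191 bp (quartiles 159 and 234), 245 of them (55.9%) were under 200 bp and 41 (9.36%) were 300 bp or wider. Other rising sites had a median width of 423 bp, and 10.4% were under 200 bp. Width went with level: across the 438 sites Spearman's rank correlation between width and 4OHT level was 0.50 and between width and control level 0.18, as a description of sites whose called width and reads come from the same libraries. At a like 4OHT level the difference in width was not seen. The 222 of the 438 with 4OHT levels of 4.86 to 5.41 had a median width of 189.5 bp and the 518 other rising sites at those levels one of 188 bp. The widest were those of Cyth4 (675 bp), Fcnb (578 bp) and Slc12a5, a neuronal chloride transporter gene (505 bp), with changes of 5.10, 4.17 and 3.16. The narrowest were inside Katna1, a microtubule-severing enzyme gene (134 bp), inside Pde4dip (142 bp), and 243 bp from Disp3 (142 bp), with changes of 2.37, 2.35 and 2.58.

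**Figure D4:**
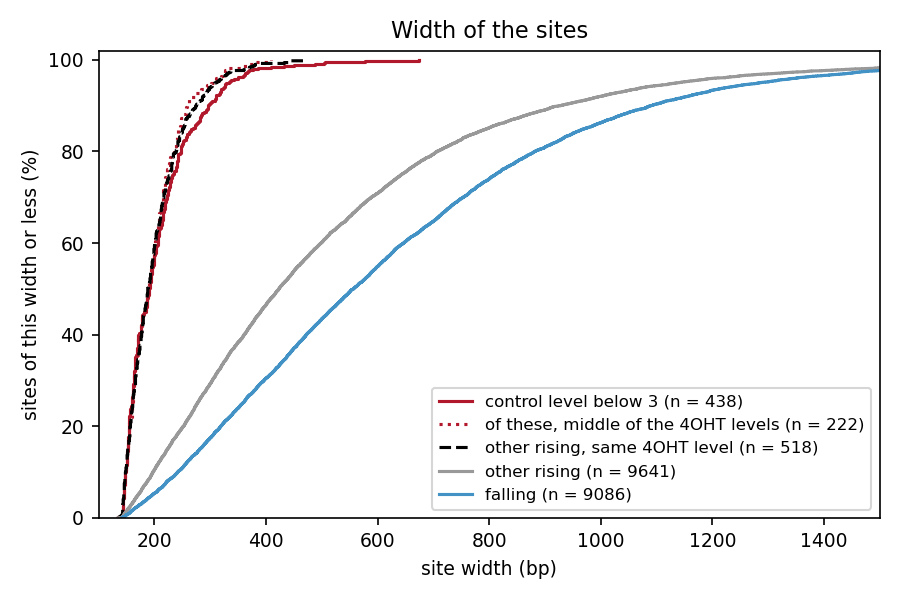
Cumulative share of sites (y, %) by width (x, bp) for the 438 sites, the 222 of them at the middle 4OHT levels, the 518 other rising sites at those levels, all other rising sites and falling sites. The first 3 curves lie close together, with medians of 191, 189.5 and 188 bp, left of the medians of 423 and 557 bp of other rising and falling sites.

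Most of the sites lay away from gene starts. Within 1 kb of an end of any annotated gene were 30 of 438 (6.85%, exact Clopper-Pearson 95% interval 4.67 to 9.63%), and within 1 kb of an end of a protein-coding gene only 6 (1.37%, 0.504 to 2.96%). Other rising sites were at a coding gene end in 5.97% of cases (5.51 to 6.47%), but those of the same 4OHT level in 1.74% (0.797 to 3.27%). Of the 6 sites, 2 were at a 5′ end, those of Slc23a3, a gene of the nucleobase transporter family, and Gm12447. Those of Dock10, C1qb, a complement gene, and Adig, a gene of fat cells, were at a 3′ end, and the strand of Disp3 was not used. An annotated start window was overlapped by 3 of the 438 (0.685%, 0.141 to 1.99%), 385 of 9641 other rising sites (3.99%) and 110 of 9086 falling sites (1.21%). The 438 were narrower than both other groups, and shares at a like width or 4OHT level were not taken. No windows of chromosome 18 were used.

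Fewer of the sites lay inside coding genes. The centre was inside the body of a protein-coding gene at 180 of the 438 (41.1%, exact interval 36.4 to 45.9%), at 55.2% of other rising sites (54.2 to 56.2%) and at 43.2% of falling sites (42.2 to 44.2%). Here the difference remained at a like 4OHT level, with 88 of 222 (39.6%, 33.2 to 46.4%) against 276 of 518 (53.3%, 48.9 to 57.6%). Inside any gene, apart from its ends, were 50% (43.2 to 56.8%) against 57.7% (53.3 to 62%), intervals that overlap. Within the 438 the coding share was alike across control levels, at 40.4% below 2, 42.3% at 2 to 2.5 and 40.8% at 2.5 to 3. It was higher at each step above, from 47.9% at levels of 3 to 4 to 59.4% at 7 to 8. At levels of 3 to 4 its interval of 45.2 to 50.6% overlaps that of the 438. More than 100 kb from any coding gene were 81 of the 438 (18.5%) and 10.4% of other rising sites. The share was 17.9% of falling sites and 15% of other rising sites with control levels of 3 to 4. At a like 4OHT level it was 19.8% (14.8 to 25.7%) against 14.3% (11.4 to 17.6%), intervals that overlap. These intervals take sites as independent and reflect counting error alone, and the differences in position were not tested. Overlap of intervals does not show that the shares are alike.

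**Figure D5:**
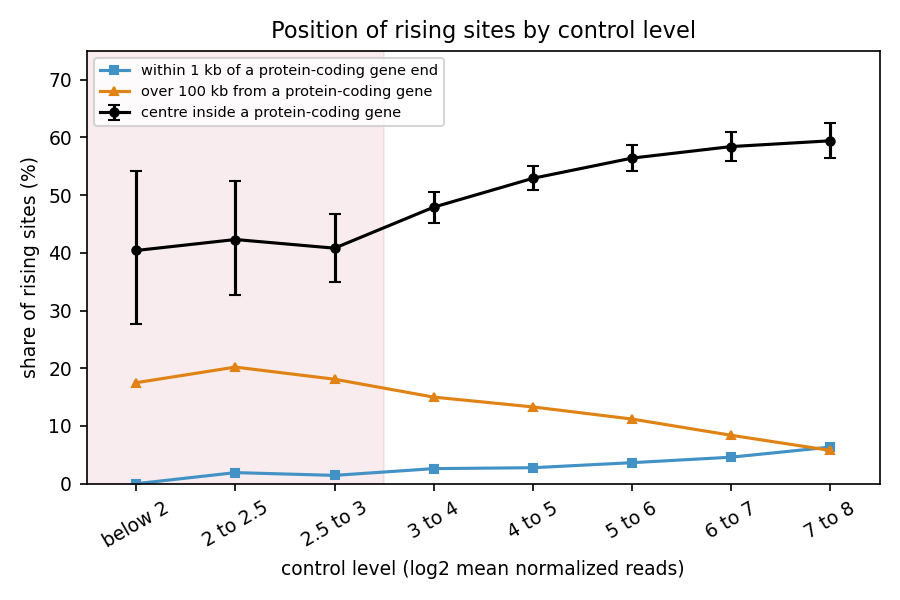
Share of rising sites (y, %) in bins of control level (x, log2 mean normalized reads) whose centre is inside a protein-coding gene (black, with exact 95% intervals), within 1 kb of a coding gene end (blue) or over 100 kb from a coding gene (orange), with the bins of the 438 sites shaded. The black points lie near 41% in the shaded bins and reach 59.4% at control levels of 7 to 8.

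Another listed site lay within 10 kb of 85 of the 438 (19.4%), against 27.2% of other rising sites and 19.5% of those of the same 4OHT level. That neighbour was higher after 4OHT in 67 of the 85 cases (78.8%) and in 77.1% of cases for other rising sites. The 67 rising neighbours had a median control level of 5.21 and a median change of 1.64. The nearest neighbour was itself 1 of the 438 in 6 of the 85 cases (7.06%, exact interval 2.63 to 14.7%). Each of these 6 belongs to a pair counted from both sides, so the cases are not independent and the interval is too narrow. The share was 2.36% for other rising sites, 1.98% for those of the same 4OHT level and 1.62% for all listed sites. No difference was tested. In all, 4 pairs of the 438 lay within 20 kb of each other. The closest pair, nearest Med13l, had its centres 472 bp apart on chromosome 5. In the authors' deposited table the first of them rose from 0.10 to 5.04 and the other from 1.58 to 5.02.

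Nearest genes were many and mostly held 1 such site. Within 100 kb of a protein-coding gene were 357 of the 438, which fell to 343 genes, 330 with 1 site, 12 with 2 and 1 with 3. At 89 genes the site was the only one listed, and at 151 a falling site was listed as well. Sites are named after the nearest gene for convenience, and a site may act on another gene. Runx2, a transcription factor gene of bone formation, is 319 kb long. It had 6 listed sites, of which 5 were higher, and 3 were among the 438, all inside the gene. They rose from 2.67 to 5.80, from 2.03 to 5.08 and from 2.62 to 5.27 in the authors' deposited table, with FDR values of 8.43e-06, 7.97e-05 and 1.44e-04.

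The genes with 2 such sites that come next by FDR were Trpm3, a cation channel gene, Dera, a deoxyribose-phosphate aldolase gene, Sorcs2, a sorting receptor gene, and Hnmt, which encodes an enzyme that degrades histamine. Changes at their sites in the authors' deposited table were 3.42 and 2.03 for Trpm3, 3.48 and 2.48 for Dera, 2.62 and 1.97 for Sorcs2, and 2.72 and 3.21 for Hnmt. All listed sites of Dera (5), Sorcs2 (4) and Hnmt (2) were higher, and Trpm3 had 6 higher and 3 lower. Gene lengths were 858 kb for Trpm3, 83.3 kb for Dera, 381 kb for Sorcs2 and 46.8 kb for Hnmt. Counts of sites per gene were not set against gene length.

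Genes on the lists of known ERK targets were nearest to few of the sites, in counts too small to be read as a result. The counts cover the listed genes alone, and Hbegf, named above, is on neither list. As background, the 438 make up 2.17% of all listed sites within 100 kb of a coding gene, and 3.97% of the rising ones. Of 20 genes of ERK feedback and FGF response, 16 had a listed site. Of their 64 listed sites, 54 were higher and 1 (1.56%) started below 3. It lay 46989 bp from Phlda1, a pleckstrin homology domain gene, and rose from 2.76 to 5.96 in the authors' deposited table (FDR 0.00281). All 9 listed sites of Phlda1 were higher. Of 53 listed sites near immediate early genes, 43 of them higher, 1 (1.89%) started below 3. It lay 2611 bp from Egr3, a zinc finger factor gene, at chromosome 14, 70085062 to 70085387, was the only listed site of that gene, and rose from 2.76 to 5.81 (FDR 0.00715).

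Counts at genes of pluripotency and early lineages were also too small to be read as a result, beside a background of 2.17%. Naive pluripotency genes had 63 listed sites, 25 higher and 38 lower, of which 1 (1.59%) started below 3. It lay 5206 bp from Dppa3, a maternal factor gene, and rose from 2.80 to 5.58 in the authors' deposited table (FDR 4.05e-05). The other 2 listed sites of Dppa3 were lower. Among primitive endoderm genes, a site inside Col4a1, a collagen IV chain gene of basement membrane, rose by 2.36 (FDR 3.50e-04). The other 2 listed sites of Col4a1 were lower. Trophectoderm genes had 1 of 21 (4.76%), at 92488 bp from Gata3, which rose by 2.59 (FDR 0.00774). All 4 listed sites of Gata3 were higher. Sites starting below 3 were at none of the general pluripotency, primed epiblast, mesendoderm, neural, fibroblast, muscle and two-cell-like genes, which had 14, 15, 13, 16, 17, 18 and 5 listed sites. With so few listed sites, having none is not read as a result.

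Some of the 438 were also nearest to genes on the lists for other cell types. Blood and immune genes had 4 of 37 listed sites (10.8%), near Bcl11b, Cyth4, Gata1 and Lcp2. Bcl11b and Cyth4 were known to be among the largest gains when that list was written, so its share is no result. The site nearest Lcp2, an adaptor gene of T cell receptor signalling, lay 25870 bp away and rose from 2.40 to 5.86 in the authors' deposited table (FDR 1.10e-06). Genes of neuronal synapses and ion channels had 3 of 116 (2.59%). Besides Iqsec3, known beforehand in the same way, these were inside Dlg2, a postsynaptic scaffold gene, and Cacna1c, a calcium channel gene. The Dlg2 and Cacna1c sites rose by 2.62 and 2.31 (FDR 3.92e-04 and 9.16e-04). Of all listed sites, 1 of 3 of Lcp2, 3 of 5 of Dlg2 and 2 of 8 of Cacna1c were higher.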

How the data were processed

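The values come from 1 table of sites that sets control against 4OHT libraries. Per the file headers, the authors' deposited values are log2 mean normalized reads for each side, a log2 fold, a p-value and an FDR. Bowtie2, bedtools, MACS2 and mm10 are named per the submitters' processing notes, while no source used here states the differential test, the depth or the handling of duplicates and Tn5 offsets. The change is the 4OHT level minus the control level and differs from the sign-turned deposited fold by at most 0.01. Libraries behind each side were inferred: weights of 3 to 6 gave the mean over all libraries to within 0.00986. The labels name replicates A, B and C without saying whether they are separate cultures, so the authors' p-values may measure technical spread. Columns of other samples numbered 0.

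Site width in bp is the deposited end minus start, both counted. Genes came from a RefSeq table of GRCm38.p6, the assembly mm10 names, with 49980 placed genes, 21900 protein-coding. Distances run from the site centre. Exon, intron and UTR were not separated. Start windows (32851) and strands came from RefSeq promoter sequences. Of 241 list entries, 238 were found, which are 234 genes. A result of 1 list is not reported here.

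Sites and lists were chosen with earlier results of these data known. Named by rule were the 10 largest changes, 10 smallest FDR, 5 highest levels, 3 widest and narrowest, 3 on each side of the limit, up to 3 per list, 5 at coding gene ends and those of the 5 genes with most sites. Named after their values were seen were the Gm31608, Gm40007, Gm31771, Adig, Lipc and Fam136a sites, the second Med13l site and Gata1. Ratio intervals are exact conditional binomial, on totals rounded to whole reads. Annotation and intervals were tested on simulated data. The software was scipy 1.17.1, numpy 2.4.6 and pandas 2.3.3 in Python 3.11.15, with matplotlib 3.10.9 for plots.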

Additional observations from a re-analysis of the deposited data

How the results depend on the processing

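Values depended mainly on the limit and on small numbers added to the reads. The 438 sites became 57 with a control level below 2, 1816 below 4, and 267 with an FDR under 0.001. For these 3 settings in the same order, the median 4OHT level was 4.80, 5.47 and 5.31, and the median width 164, 216 and 194 bp. The median change of 2.59 was 2.41 with 1 normalized read added to both sides, 1.89 with 5 added and 2.78 with an FDR under 0.001. The 103 sites with a change of 3 or more became 58 and 6 with 1 and 5 reads added, and 16 at the lower bound of the counting interval. The share near a gene end was 2.97% within 500 bp, 11.4% within 2 kb and 1.37% for protein-coding genes. It was 0.457% for their 5′ ends, a setting chosen after the data were seen. These 5′ ends cover only the 17492 of 21900 protein-coding genes with a start window, so that share may be too low. The share inside a gene, not at its ends, was 48.9% for any gene and 41.1% for coding genes. The median distance of 7804 bp to a coding gene body was 41142 bp to a gene end. The other 9 settings kept values within their intervals or counts within 1.5 times. No paired analysis was possible because the table holds no values per library, and for the same reason no library was left out. Motifs in 200 bp around site centres were not run, since no genome sequence was used.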

Other observations

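The exact interval of the share of the 438 sites contained the share of other rising sites on every chromosome except X, 7 and 11. The X chromosome held 20 of them (4.57%, exact interval 2.81 to 6.96%), against 1.97% of other rising sites, and the interval contained the 3.47% of those of the same 4OHT level. Chromosome 7 held 9 (2.05%, 0.944 to 3.86%), against 5.46% of other rising sites, and chromosome 11 held 15 (3.42%, 1.93 to 5.59%), against 5.97%. These 3 were picked from all chromosomes after their shares were seen, and the differences were not tested.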
